A study of Capsella grandiflora and Capsella rubella with 18 samples.

Results

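Among 19350 gene rows measured in 18 libraries of 2 Capsella species, 5356 held at least 10 FPKM in every library. FPKM counts sequenced fragments per unit of transcript length, corrected for the size of the library. The 200 rows described here as the steadiest genes were chosen by their measured values: they had the smallest standard deviation (SD) of log2(FPKM + 1) over the 18 libraries among the 5356. They make up 3.73% of the 5356. Every library and every level entered this choice, so the low spread of these genes, and the small differences between species and tissues that follow from it, are given as descriptions without a test.

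Mixed-stage flower buds were taken from 4 plants of Capsella rubella, a self-compatible species, and from 4 plants of its outcrossing relative Capsella grandiflora. Maturing leaves were taken from 10 further plants of C. grandiflora, as an annotation resource. The study set the buds of both species against each other to follow expression after a rapid change of mating system. The libraries were paired-end mRNA libraries from plants raised in a greenhouse under standard conditions. The C. rubella plants came from 4 places of origin, and 1 of them was a line inbred in the greenhouse. Of the C. grandiflora bud plants, 3 grew from seed collected in the wild and 1, C. grandiflora bud 4, was an F1 of a cross within the species. Of the leaf plants, 9 grew from seed collected in the wild and 1, leaf 6, was such an F1. There was no leaf of C. rubella, so tissues were compared within C. grandiflora. Library numbers follow the order of the samples and pair nothing. The titles of 3 C. grandiflora bud plants share a leading number or letters with those of leaf plants, and no source used here says what these mark. Replicates were separate plants. Differences between tissues in bulk RNA cannot tell fewer cells of a type from less RNA per cell.

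Genes of basic cell functions, such as translation, protein turnover, RNA processing, membrane traffic and the cytoskeleton, are needed in nearly every cell and are usually transcribed at similar levels in many tissues. Plant laboratories use such genes as internal standards in quantitative PCR, and they choose them by the same kind of measure as here, a small spread across organs and conditions. Capsella belongs to the Brassicaceae, the family of Arabidopsis, and C. rubella arose from a C. grandiflora-like ancestor through the loss of self-incompatibility. The table gives each gene by an identifier alone and pairs none with a name, so no role is stated for any gene below. For the same reason, bud and leaf marker genes could not be checked against the tissue labels.

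The columns of the 2 tissues differed in their sums. FPKM summed to 576725 to 657140 in the 8 bud libraries, against 1307609 to 1858148 in the 10 leaf libraries. The column medians lay at 10.2 to 11.02 FPKM in buds and at 7.2 to 10.9 FPKM in leaf. The 100 highest rows of a library held 17.1% to 22.4% of its sum in buds and 34.4% to 58.5% in leaf. Without those 100 rows the sums were 477619 to 518196 FPKM in buds and 677848 to 868231 FPKM in leaf. Bud values were rounded to 2 decimals and leaf values were not. Whether the authors scaled the tissues separately is not stated in the sources used here, and the set of steadiest genes depends on the scale of the columns. C. rubella bud 1 and C. grandiflora bud 1 held exactly 0.5 in 1137 and 1023 rows and 0 in 4 and 6, whereas the other 6 buds held 0 in 1039 to 1520 rows. None of these rows is among the 5356. The number of reads behind a value is unknown, since FPKM keeps no total. The whole set of 200 summed to 7952 to 8255 FPKM in C. rubella buds, 7832 to 8331 FPKM in C. grandiflora buds and 7345 to 9015 FPKM in leaf. Set against the column sums, that was 1.28% to 1.39% of all FPKM in C. rubella buds, 1.26% to 1.34% in C. grandiflora buds and 0.435% to 0.677% in leaf. A gene steady in FPKM as deposited was therefore not steady as a share of its column, and the section on scaling at the end gives the size of this.

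The 200 steadiest genes were of moderate level. Their mean over the 18 libraries ran from 12.6 to 274 FPKM with a median of 28.4, against a median of 47.4 FPKM in the other 5156 genes of the pool. Their SD on the log2 scale ran from 0.115 to 0.22 with a median of 0.194, against 0.56 in the other genes. The highest library of a gene exceeded its lowest by 1.35-fold to 2.09-fold, with a median of 1.67-fold, against a median of 3.7-fold in the other genes. In 196 of the 200 the highest value was less than 2 times the lowest, and in 19 it was less than 1.5 times. When the pool was cut into 5 equal parts by mean log2 level, the lowest held 75 of the 200 and the next 4 held 47, 40, 23 and 15. The median SD of the pool followed the same order, at 0.349, 0.484, 0.582, 0.678 and 0.953. Steady genes were thus most frequent in the lowest part, which reached up to 24.1 FPKM. A gene close to the minimum of 10 FPKM can be in the pool only if its spread is small. The minimum itself therefore sets part of this order.

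**Figure D1:**
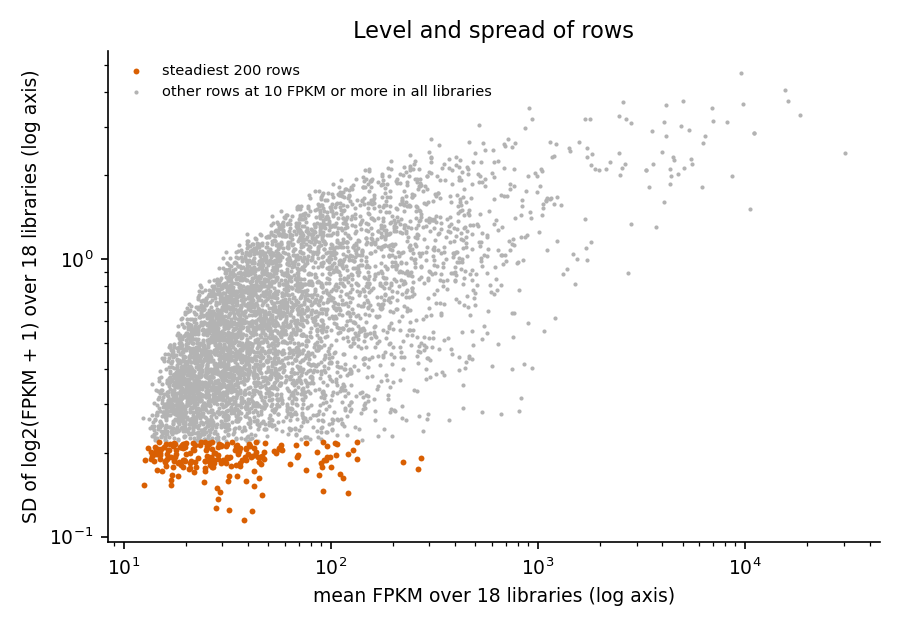
Mean FPKM over the 18 libraries (horizontal, log axis) and SD of log2(FPKM + 1) over the same libraries (vertical, log axis), 1 point per gene row, with the 200 steadiest genes set apart from the other rows of the pool. The 200 fill the bottom edge between SDs of 0.115 and 0.22 and thin out towards higher levels.

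Carubv10008946m (scaffold 1, 2975877 to 2980866 on the CR v1 JGI build) had the smallest SD, 0.115. It stood at 37.5, 38.8, 38.8 and 38.6 FPKM in C. rubella buds 1 to 4, at 40.8, 38.9, 38.6 and 37.0 FPKM in C. grandiflora buds 1 to 4, and at 31.3 (lowest), 38.3 (median) and 43.9 FPKM (highest) in leaf. Both the highest and the lowest of its 18 values were leaf libraries, 1.40-fold apart, and the 3 groups overlapped. Carubv10009052m (scaffold 1, 5075612 to 5079107) had an SD of 0.124. Its values were 44.8, 40.5, 45.2 and 46.3 FPKM in C. rubella buds, 41.9, 42.0, 40.1 and 39.8 FPKM in C. grandiflora buds, and 33.2, 40.4 and 49.7 FPKM as the lowest, median and highest leaf. Here too the leaf range took in every bud library. Carubv10017257m (scaffold 5, 2062378 to 2065180) had an SD of 0.125. It was listed at 34.06, 32.7, 31.5 and 35.8 FPKM in C. rubella buds and at 31.8, 33.5, 40.3 and 32.8 FPKM in C. grandiflora buds, and the leaf values lay between 27.9 and 34.8 FPKM with a median of 30.7. C. grandiflora bud 3 was the highest library of this gene, and leaf sat somewhat low.

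Carubv10003006m (scaffold 6, 3245064 to 3248614) reached an SD of 0.127 at a lower level. Its C. rubella buds gave 27.6, 28.9, 25.2 and 28.0 FPKM, its C. grandiflora buds 29.4, 26.9, 29.0 and 25.3 FPKM, and its leaves 22.4 to 32.2 FPKM with a median of 27.8. The medians of the 3 groups nearly coincided. Carubv10006371m (scaffold 7, 5584029 to 5586391) had 28.8, 28.3, 28.7 and 31.4 FPKM in C. rubella buds, 25.7, 27.8, 35.1 and 28.1 FPKM in C. grandiflora buds and 23.2 to 32.5 FPKM in leaf, median 28.8, with an SD of 0.137. As in Carubv10017257m, C. grandiflora bud 3 was the highest of all. Carubv10007571m (scaffold 7, 5547988 to 5550667) lies on the same scaffold and had an SD of 0.141. It gave 43.7, 47.3, 45.9 and 41.6 FPKM in C. rubella buds, 50.9, 46.8, 46.0 and 45.9 FPKM in C. grandiflora buds, and 39.7 to 56.8 FPKM in leaf with a median of 44.9.

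Carubv10017906m (scaffold 5, 9138994 to 9140947) combined a small spread with a high level. It stood at 123, 137, 139 and 132 FPKM in C. rubella buds, 125, 113, 116 and 127 FPKM in C. grandiflora buds, and 103.4 to 139 FPKM in leaf with a median of 115. Its highest value exceeded its lowest by 1.35-fold, the smallest such ratio among the 200, while its SD of 0.143 placed it only seventh. Carubv10001560m (scaffold 6, 2558983 to 2562247) was eighth with an SD of 0.145. Its values were 29.2, 30.4, 30.5 and 31.6 FPKM in C. rubella buds, 36.8, 31.1, 28.9 and 31.4 FPKM in C. grandiflora buds and 24.4 to 31.7 FPKM in leaf, median 27.2. In all 8 of these genes the lowest of the 18 libraries was a leaf.

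**Figure D2:**
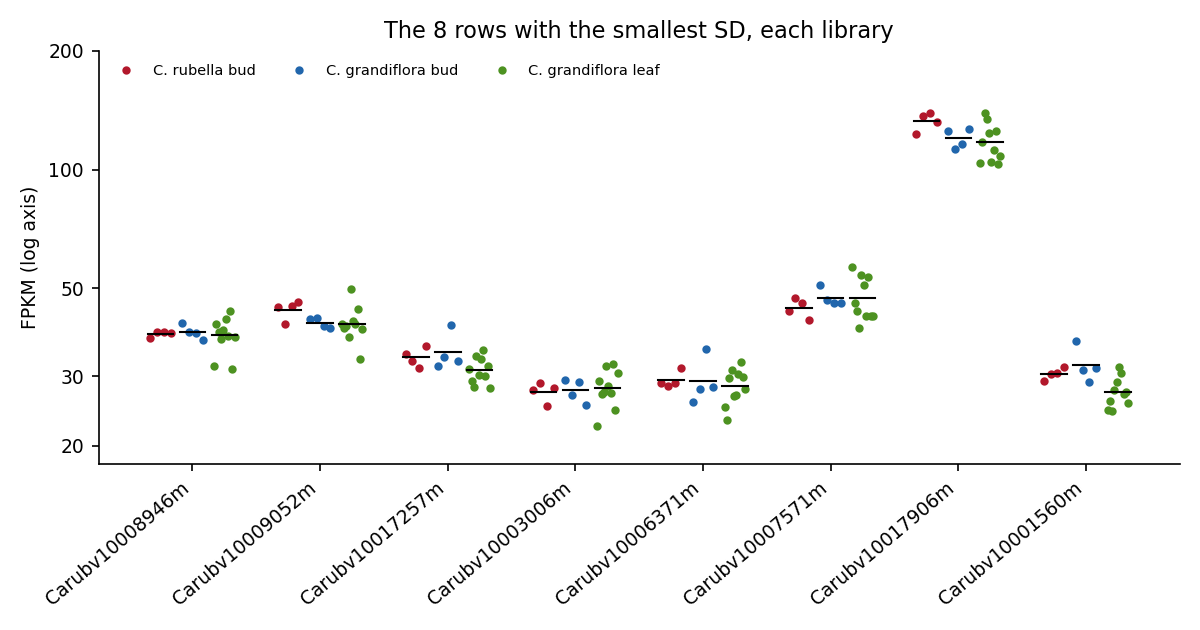
FPKM (log axis) of the 8 genes with the smallest SD, 1 point per library, with C. rubella buds, C. grandiflora buds and C. grandiflora leaves side by side for each gene and a line at each group mean. The 3 groups overlap in every gene, and the leaf points, of which there are 10, reach furthest down in all 8.

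Only a few of the 200 were abundant. The highest mean belonged to Carubv10018138m (scaffold 5, 9481279 to 9483208), with 281, 234, 239.5 and 219.9 FPKM in C. rubella buds, 259, 238, 235 and 279 FPKM in C. grandiflora buds and 258 to 355 FPKM in leaf, median 285. Its leaf median lay above all 8 bud libraries. Carubv10001918m (scaffold 6, 6784813 to 6786461) gave 251, 285, 277 and 319 FPKM in C. rubella buds, 210.2, 207, 266 and 288 FPKM in C. grandiflora buds and 234 to 315 FPKM in leaf, median 259. Its 2 lowest libraries were C. grandiflora buds 1 and 2. Carubv10027152m (scaffold 8, 306303 to 308358) had 227, 216, 221 and 209 FPKM in C. rubella buds, 211, 198, 206 and 198 FPKM in C. grandiflora buds and 192 to 309.9 FPKM in leaf, median 218. The bud libraries of both species stayed close together while the highest leaf stood far above them.

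The genes of lowest level lay just over the minimum. Carubv10007204m (scaffold 7, 9528001 to 9530281) had 12.1, 12.2, 12.02 and 11.6 FPKM in C. rubella buds, 12.3, 11.3, 11.6 and 13.0 FPKM in C. grandiflora buds and 10.1 to 15.0 FPKM in leaf, median 13.5. Despite its low level it was 13th by SD (0.154). Carubv10007691m (scaffold 7, 16149543 to 16152935) gave 13.6, 11.1, 13.8 and 14.3 FPKM in C. rubella buds, 12.3, 11.3, 14.3 and 11.8 FPKM in C. grandiflora buds and 10.04 to 15.8 FPKM in leaf, median 12.7. Carubv10022368m (scaffold 2, 11878998 to 11881709) gave 11.3, 11.6, 12.3 and 12.2 FPKM in C. rubella buds, 12.2, 10.98, 14.03 and 12.1 FPKM in C. grandiflora buds and 11.3 to 19.3 FPKM in leaf, median 13.0. In all 3 the highest library was a leaf.

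The limit of the set fell in a dense part of the distribution. The last gene inside, Carubv10004655m (scaffold 7, 5425290 to 5427509), had an SD of 0.21998, with 14.6, 14.9, 14.1 and 12.4 FPKM in C. rubella buds, 18.4, 13.8, 14.7 and 15.6 FPKM in C. grandiflora buds and 10.03 to 18.5 FPKM in leaf, median 15.5. The first outside, Carubv10019560m, had an SD of 0.2209, with 48.5, 41.3, 38.6 and 43.4 FPKM in C. rubella buds, 47.7, 40.9, 48.4 and 36.8 FPKM in C. grandiflora buds and 26.1 to 46.0 FPKM in leaf, median 35.9. The next inside, Carubv10007378m and Carubv10023005m, had SDs of 0.2197 and 0.2195, and the next outside, Carubv10008630m and Carubv10019120m, had 0.2210 and 0.2211. Membership at this edge therefore rests on the third decimal of the SD.

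What spread the steadiest genes had lay mostly among the leaves. When the squared deviations from each gene's mean were summed over the 200, 65.6% lay among leaf libraries, 15.8% between bud and leaf, 6.77% between the species within bud, 5.40% among C. rubella buds and 6.44% among C. grandiflora buds. In the other genes of the pool, 77.6% lay between bud and leaf and 18.5% among leaf libraries. The median SD of the 200 was 0.0893 within C. rubella buds, 0.104 within C. grandiflora buds and 0.217 within leaf. In the other genes it was 0.136, 0.152 and 0.389 in the same 3 groups. An SD under 0.1 was found in 121 of the 200 among C. rubella buds (60.5%), in 96 among C. grandiflora buds (48%) and in 0 among leaves. The matching shares of the other genes were 30.6% and 24.7% in the buds, with 1 gene in leaf. The leaf SD exceeded the SD over all 8 buds in 179 of the 200 (89.5%) and in 91.3% of the other genes, so this order was common to the whole pool.

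A leaf library was the highest of the 18 in 154 of the 200 genes and the lowest in 154, where leaves are 10 of 18 libraries. Leaf 6 was the highest in 48, leaf 5 in 28 and leaf 3 in 26. Leaf 1 was the lowest in 46, leaf 9 in 24 and leaf 10 in 21. The 200 moved together in these libraries: their median deviation from each gene's own mean was 0.17 in leaf 6 and -0.18 in leaf 1 on the log2 scale, against -0.03 to 0.03 in C. rubella buds and -0.04 to 0.03 in C. grandiflora buds. The other genes of the pool took a like course among leaves, with median deviations of -0.04 in leaf 1 and 0.37 in leaf 6. Leaf 6 and leaf 1 were set against each other because the 200 had their highest and lowest median deviation there. Leaf 6 exceeded leaf 1 in 176 of the 200 (88%) and in 72.5% of the other genes. That choice fixes a majority among the 200 in advance, so nothing is read from the 88%. After each library's median deviation was subtracted, the median SD of the 200 was 0.176, against 0.194 before, and within leaf it was 0.184, against 0.217 before. Leaf 6 is the F1 leaf, and whether its origin plays a part was not tested.

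**Figure D3:**
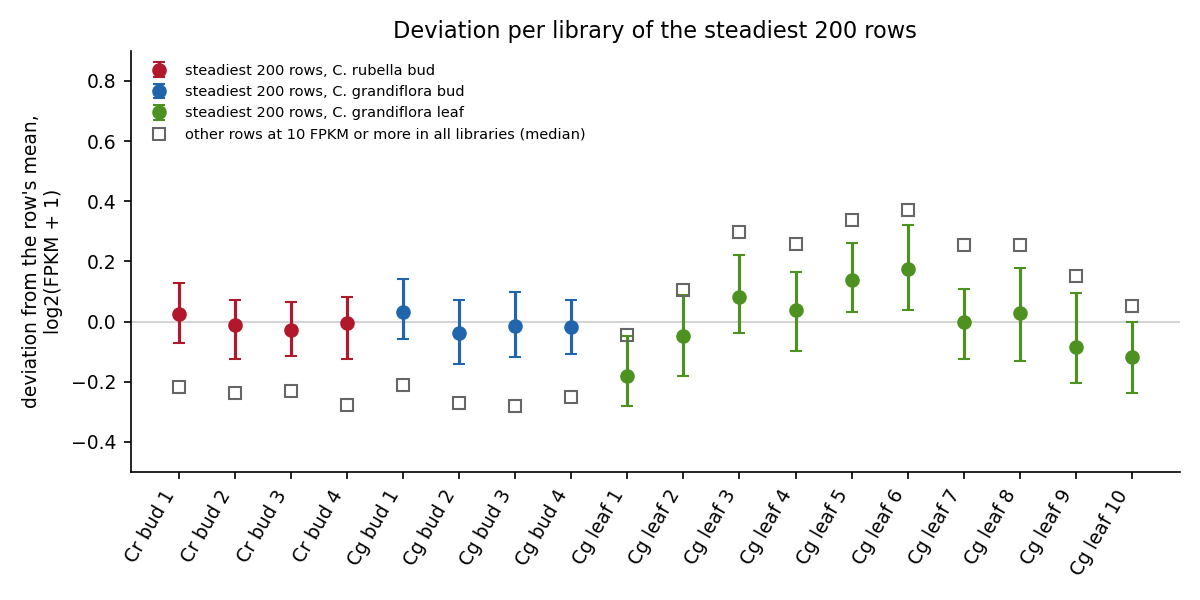
Deviation of log2(FPKM + 1) from each gene's own mean over the 18 libraries, shown per library. Points and bars give the median and quartiles of the 200 steadiest genes, and open squares give the median of the other genes of the pool. The medians of the 200 stay between -0.04 and 0.03 in the bud libraries, while those in leaf run from -0.18 in leaf 1 to 0.17 in leaf 6.

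A small overall SD could still hide 1 stray library within a group. The 3 genes named next were chosen after their values were seen, as the least steady of the 200 within each group. Carubv10007623m had the largest SD among C. rubella buds, 0.335, with 22.9, 36.2, 22.0 and 22.2 FPKM there, 20.7, 20.6, 19.6 and 18.5 FPKM in C. grandiflora buds and 17.6 to 23.8 FPKM in leaf, median 20.2. C. rubella bud 2 stood alone above every other library. This gene has exactly the coordinates of another row, Carubv10004858m, so its FPKM is uncertain. Carubv10010117m had the largest SD among C. grandiflora buds, 0.291, with 22.9, 17.2, 19.3 and 19.5 FPKM in C. rubella buds, 16.3, 17.5, 24.9 and 15.6 FPKM in C. grandiflora buds and 14.7 to 24.5 FPKM in leaf, median 19.4. C. grandiflora bud 3 was its highest library. Carubv10004108m had the largest SD among leaves, 0.285, with 16.8, 17.2, 16.7 and 17.7 FPKM in C. rubella buds, 18.8, 19.9, 17.9 and 17.4 FPKM in C. grandiflora buds and 11.7 to 22.5 FPKM in leaf, median 17.2. Its 8 buds lay within the range of its leaves.

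Between the species, the difference in mean log2(FPKM + 1) of the 200, C. rubella bud minus C. grandiflora bud, ran from -0.34 to 0.39 with quartiles of -0.10 and 0.10 and a median of 0.01. It was above 0 in 101 genes. It was under 0.25 in size in 183 (91.5%), against 63.2% of the pool and 49.4% of all genes tested. In the limma fit of the 8 buds, 4053 of 16923 genes tested (23.9%) had an adjusted p below 0.05. Of the 200, 8 (4%) did, 2 higher and 6 lower in C. rubella, where 11.9% and 12% of all genes tested were. With columns scaled to an equal sum the balance turned, with 11 of the 200 called, 9 higher and 2 lower, against 23.1% of all genes. An unadjusted p below 0.05 was found in 40 of the 200 and in 38.4% of all genes tested. The 4 values of each species did not overlap in 33 of the 200, with C. rubella higher in 17 and lower in 16, where 28.1% of all genes tested had no overlap. The rule that chose the genes used these libraries, so nothing is read from these counts. A single fit of all 18 libraries, where leaf sets most of the estimated error, called 0 of the 200 and 8.47% of all genes. In that limma fit an unadjusted p below 0.05 was found in 8 of the 200 and in 18.1% of all genes tested. The count of 8 called in the fit of the buds became 2, both higher, without C. rubella bud 4, where 16.3% of all genes were called. It was 11 without C. grandiflora bud 3, where 23.5% of all genes were. It was 4 without C. grandiflora bud 1, C. rubella bud 1 or C. rubella bud 2, and 3 without C. grandiflora bud 2 or 4, where 16.2% to 18.5% of all genes were.

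The largest excess in C. rubella was that of Carubv10007375m (scaffold 7, 4642554 to 4645903). It stood at 34.08, 36.8, 34.7 and 35.5 FPKM in C. rubella buds, 27.8, 24.9, 25.6 and 28.1 FPKM in C. grandiflora buds and 23.1 to 37.8 FPKM in leaf, median 32.5. The 2 sets of buds did not overlap, the C. grandiflora leaf median lay between them, and the species differed by 0.39 in mean log2 value (SE 0.0716, n = 4 each). Carubv10004886m (scaffold 7, 4477800 to 4479452) followed with 0.34 (SE 0.121), from 54.1, 57.6, 46.2 and 61.2 FPKM in C. rubella buds and 49.1, 42.2, 45.2 and 36.1 FPKM in C. grandiflora buds. Its C. rubella bud 3 lay below C. grandiflora bud 1, so the buds overlapped. The largest deficit was that of Carubv10023052m (scaffold 4, 7894986 to 7899375), with 18.6, 15.7, 15.3 and 15.5 FPKM in C. rubella buds, 22.6, 19.8, 19.2 and 21.4 FPKM in C. grandiflora buds and 14.9 to 25.1 FPKM in leaf, median 19.0. The buds did not overlap, and the difference was -0.34 (SE 0.0915). Carubv10024776m (scaffold 4, 8914180 to 8915860) had a difference of -0.33 (SE 0.119), from 22.4, 25.03, 28.0 and 20.1 FPKM in C. rubella buds and 28.5, 33.4, 26.8 and 32.4 FPKM in C. grandiflora buds. C. rubella bud 3 lay above C. grandiflora bud 3 here.

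Between the tissues, C. grandiflora bud minus C. grandiflora leaf, the difference of the 200 ran from -0.41 to 0.34 with quartiles of -0.13 and 0.11 and a median of -0.01. It was above 0 in 94 of them (47%). It was under 0.25 in size in 173 (86.5%), against 964 of the 5356 in the pool and 13.0% of all genes tested. The median of the other genes of the pool was -0.46, so in FPKM as deposited the typical gene of the pool was lower in bud and the steadiest 200 were not. Over all genes tested the median was instead 0.13, with 53.4% above 0. In the limma fit, 12000 of 17229 genes (69.7%) had an adjusted p below 0.05, 37.4% higher and 32.2% lower in bud. Of the 200, 11 (5.5%) did, 3 higher and 8 lower in bud, and 20 had an unadjusted p below 0.05, as did 72.2% of all genes tested. Bud and leaf did not overlap in 5 of the 200, with bud higher in 2 and lower in 3, where 50.7% of all genes tested had no overlap. Nothing is read from these counts either, since the rule used both tissues. The 11 became 4 without C. grandiflora bud 1 or 3 and 2 without C. grandiflora bud 2 or 4, in fits that called 60.6% to 60.9% of all genes.

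The gene highest in bud relative to leaf was Carubv10008357m (scaffold 1, 19340190 to 19344426), with 20.9, 19.7, 18.1 and 19.9 FPKM in C. grandiflora buds and 12.6 to 18.04 FPKM in leaf, median 15.9. The tissues did not overlap, although the highest leaf came close to the lowest bud, and the difference was 0.34 (SE 0.13, n = 4 and 10). Its C. rubella buds stood lower, at 14.6, 15.7, 18.5 and 14.7 FPKM, inside or near the leaf range. Carubv10008296m (scaffold 1, 11167049 to 11171240) also differed by 0.34 (SE 0.124), with 31.1, 31.4, 28.3 and 31.2 FPKM in C. grandiflora buds and 18.6 to 28.3 FPKM in leaf, median 23.7. Its tissues were parted by a still smaller gap. Its C. rubella buds, at 30.3, 29.2, 30.3 and 31.5 FPKM, were close to those of C. grandiflora. The gene lowest in bud was Carubv10007378m (scaffold 7, 9549029 to 9554746), with 41.7, 35.9, 32.9 and 33.9 FPKM in C. grandiflora buds and 41.4 to 55.5 FPKM in leaf, median 47.2, a difference of -0.41 (SE 0.111). C. grandiflora bud 1 lay just inside the leaf range. Carubv10009603m (scaffold 1, 3477920 to 3479752) had 13.4, 14.4, 13.1 and 11.96 FPKM in C. grandiflora buds and 15.1 to 20.5 FPKM in leaf, median 16.8, a difference of -0.36 (SE 0.119) without overlap. With every column scaled to the same sum, both of these genes were instead higher in bud, by 0.86 each.

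**Figure D4:**
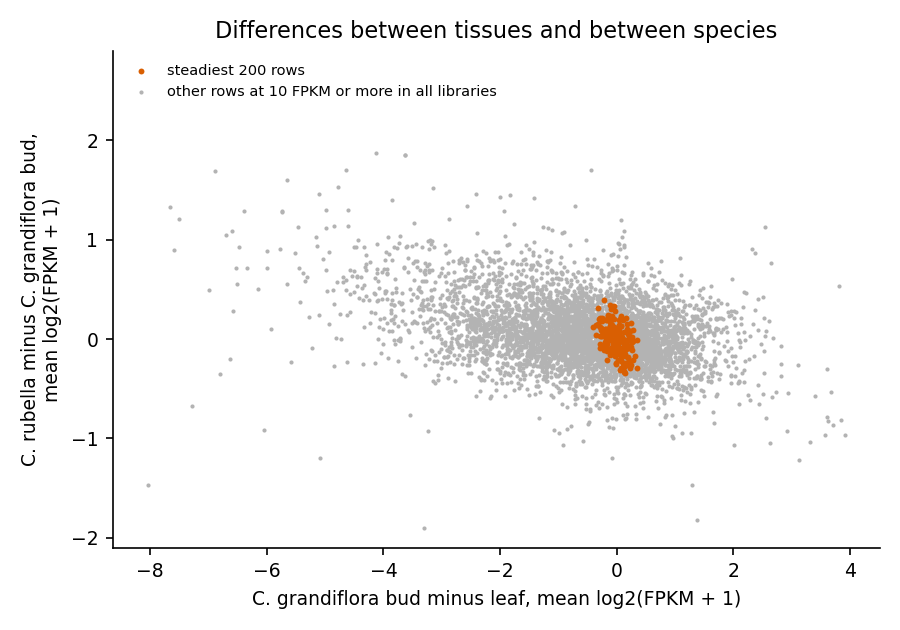
Difference in mean log2(FPKM + 1) between C. grandiflora bud and leaf (horizontal, bud minus leaf) and between C. rubella and C. grandiflora bud (vertical, C. rubella minus C. grandiflora), 1 point per gene, with the 200 steadiest genes set apart from the other rows of the pool. The 200 lie within -0.41 and 0.34 across and within -0.34 and 0.39 upright, while the pool spreads much further between tissues than between species.

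Genes with small group differences were still divided by the rule according to their spread within groups. In the pool, 672 genes had both differences under 0.25 in size, and 158 of them were among the 200. Within these 672 the median leaf SD was 0.226 in the 158 and 0.354 in the other 514. The median SD within C. rubella buds was 0.0865 in the 158 and 0.114 in the other 514, and within C. grandiflora buds it was 0.109 and 0.133. The rule fixes this order, and the values only give its size.

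To describe spread in libraries not used for a choice, 200 genes were chosen by the same rule in part of the libraries and read in the rest. The lists were not matched to their pools for level, and in the pool of all libraries the median SD rose with level. How much of the differences below follows from level was not tested. The 200 steadiest genes of the 14 C. grandiflora libraries had a median SD of 0.095 in the 4 C. rubella buds, which had not been used, against 0.135 in the pool of that choice, and 146 of them lay under that pool's median. Of them 155 were also among the 200 steadiest of all 18 libraries. The 200 steadiest of the 8 buds had a median SD of 0.32 in the unused leaves, against 0.408 in their pool, and 159 lay under the pool's median. Their mean level in leaf was off by a median of 0.518 on the log2 scale from that in bud, against 0.91 in the pool, and 42 of them fell under 10 FPKM in at least 1 leaf. The 200 steadiest of the 10 leaves had a median SD of 0.157 in the unused buds, against 0.206 in their pool, with 146 under the pool's median. Their bud level was off by a median of 0.498 from that in leaf, against 0.994 in the pool. The bud choice and the leaf choice shared 10 genes, 5% of each, where the 200 were drawn from pools of 8069 and 7070 genes. Of these 10, 7 were among the 200 steadiest of all libraries, which follows in part from a rule that used both tissues. Of the 200 steadiest of all libraries, 25 were in the bud choice and 66 in the leaf choice. The level in the other tissue was within 0.5 on the log2 scale for 96 of the 200 in the bud choice, against 30.4% of its pool, and for 100 of the 200 in the leaf choice, against 28.1% of its pool.

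The steadiest genes were spread over the genome. Scaffolds 1 to 8 held 42, 12, 17, 24, 15, 30, 36 and 23 of them, and 1 lay on another scaffold. As a share of the pool genes there, scaffold 7 held the most (4.85%) and scaffold 3 the least (2.33%) of the 8. Neighbouring members on a scaffold were a median of 301183 bases apart, and 5 pairs were next to each other in the order of genes. Their genomic span, introns included, was 943 to 12017 bases with a median of 3221, against 2695.5 in the other genes of the pool. With the pool cut into 5 equal parts by span, the shortest held 12 of the 200 and the next 4 held 38, 46, 54 and 50. The median SD of the pool was 0.758 in the part of shortest span and 0.458 in that of longest, so short genes were less steady in the pool as a whole.

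The closest pair was Carubv10027708m (scaffold 8, 9703686 to 9704891) and Carubv10027727m (scaffold 8, 9705197 to 9707720), parted by 305 bases. Carubv10027708m gave 106, 106, 117 and 104 FPKM in C. rubella buds, 104, 95.07, 85.8 and 88.1 FPKM in C. grandiflora buds and 83.9 to 138 FPKM in leaf, median 111. Carubv10027727m gave 18.9, 18.02, 17.4 and 19.1 FPKM in C. rubella buds, 16.9, 17.3, 16.7 and 17.9 FPKM in C. grandiflora buds and 11.7 to 18.2 FPKM in leaf, median 13.8. The neighbours thus differed several-fold in level, and in leaf the median of the first lay above all its C. grandiflora buds while that of the second lay below them. A second pair joined Carubv10008296m, described above, to Carubv10008909m (scaffold 1, 11160378 to 11165908) over 1140 bases. Carubv10008909m had 13.5, 14.8, 13.96 and 12.2 FPKM in C. rubella buds, 16.7, 16.8, 17.5 and 17.5 FPKM in C. grandiflora buds and 12.7 to 21.3 FPKM in leaf, median 16.2. Its species did not overlap in bud, whereas those of its neighbour did. Carubv10001918m, among the most abundant, lay 1531 bases from Carubv10001052m (scaffold 6, 6779749 to 6783281), which had 56.1, 58.9, 67.1 and 60.6 FPKM in C. rubella buds, 61.0, 63.6, 56.7 and 57.3 FPKM in C. grandiflora buds and 38.5 to 61.6 FPKM in leaf, median 49.1.

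Some loci were listed more than once. Of the 200 rows, 26 (13%) had exactly the coordinates of at least 1 other row, close to the 13.3% of the pool and the 12.9% of all rows. Such rows may be transcripts of 1 gene or overlapping genes whose fragments were divided between them, so their FPKM is uncertain. The 26 had 28 partner rows, of which 0 were among the 200 and 12 were in the pool. The median SD of the partners was 0.596 on the log2 scale, against 0.714 over all rows and 0.56 in the other genes of the pool. In 14 of the 28 partners, bud and leaf of C. grandiflora differed by at least 1. Among all genes tested, 46.6% differed by less than 1. When a row and its partner were added in FPKM, the SD of the sum stayed at or below the largest SD of the 200 in 10 of 28 cases.

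The pairs named next were chosen after their values were seen. Carubv10026411m (scaffold 8, 7111727 to 7116290) was 12th by SD, with 15.1, 16.8, 15.1 and 16.8 FPKM in C. rubella buds, 16.4, 15.5, 16.0 and 15.0 FPKM in C. grandiflora buds and 14.7 to 21.3 FPKM in leaf, median 17.8. Its partner on the same coordinates, Carubv10026642m, had 5.41, 6.39, 3.86 and 5.46 FPKM in C. rubella buds, 8.03, 6.46, 4.49 and 5.85 FPKM in C. grandiflora buds and a median of 242 FPKM in leaf, a bud minus leaf difference of -5.07. One of the steadiest rows thus shared its locus with a row found almost entirely in leaf. The partner of Carubv10023052m, Carubv10023958m, gave 22.8, 29.6, 26.2 and 17.98 FPKM in C. rubella buds, 24.9, 16.4, 11.6 and 21.4 FPKM in C. grandiflora buds and 92.6 to 306 FPKM in leaf, median 211. The species difference given above for Carubv10023052m, and the tissue difference of Carubv10007378m, may depend on how fragments were divided at these loci. Carubv10007378m also shares its coordinates with another row, and the division of fragments was not tested. Carubv10025759m (scaffold 8, 9664279 to 9676295) had partners in both directions. Its partner Carubv10028327m had 14.3, 31.6, 28.4 and 12.1 FPKM in C. rubella buds, 36.3, 29.0, 2.97 and 26.9 FPKM in C. grandiflora buds and 0.243 to 1.12 FPKM in leaf, median 0.571. Its other partner, Carubv10027177m, was instead lower in bud, with 17.5 to 19.8 FPKM in C. grandiflora buds and 24.6 to 41.1 FPKM in leaf, a bud minus leaf difference of -0.70.

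Which genes counted as steadiest depended on the scale given to the columns. With all columns set to an equal sum, 0 of the 200 were among the steadiest 200. With an equal median 73 were, with an equal upper quartile 61, and after quantile normalization 63. Under those 4 scalings the median SD of the original 200 was 0.685, 0.212, 0.228 and 0.238. In the same order, 152, 197, 195 and 197 of the 200 still held at least 10 FPKM in every library. Equal sums placed them at the median percentile 54.2 of the pool's SDs, so as shares of the total FPKM they were no steadier than the middle of the pool, while the other 3 scalings left them at percentiles of 5.34, 6.28 and 7.8. The scalings moved bud against leaf. The median tissue difference of the 200 was -0.01 in FPKM as deposited, 1.23 with equal sums, -0.18 with equal medians, 0.28 with equal upper quartiles and 0.35 after quantile normalization. Over all genes tested, the median tissue difference was 1.28, -0.02, 0.40 and -0.02 under the same 4 scalings. Relative to those medians the 200 stood a little lower in bud with equal sums, equal medians and equal upper quartiles, and higher after quantile normalization. Conversely, the 200 steadiest genes under equal sums had a median tissue difference of -1.26 in FPKM as deposited. The minimum level also mattered: at 20 FPKM 113 of the 200 stayed, and without a minimum 59 did. A pseudocount of 0.1 kept 195 of the 200, a pseudocount of 5 kept 175, and leaving out 1 library at a time kept 163 (without leaf 4) to 193 (without C. rubella bud 3).

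**Figure D5:**
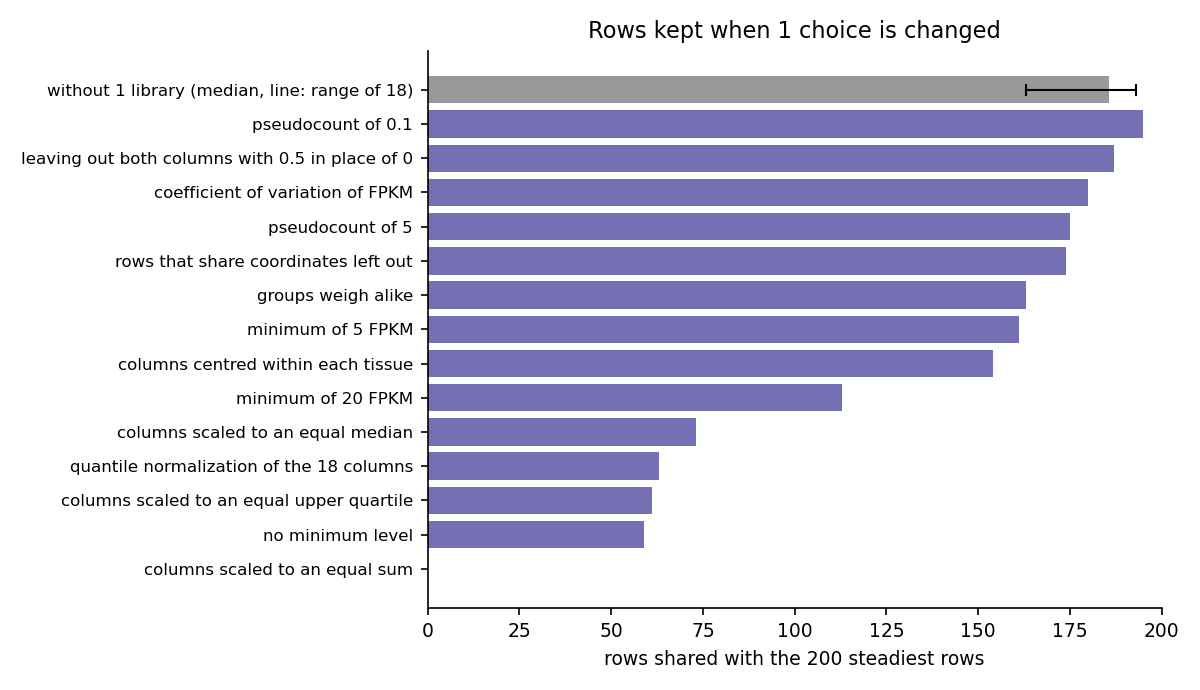
Number of the 200 steadiest genes that stay among the steadiest 200 when 1 choice is changed (horizontal), 1 bar per choice, with the bar for leaving out 1 library at the median of 18 values and a line over their range. The bars for other column scalings are short, from 0 with equal sums to 73 with equal medians, as is that for no minimum level at 59, while those for the pseudocount and for leaving out a library run from 163 to 195.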

How the data were processed

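The authors deposited expression as FPKM in 1 table of 19350 rows and 18 library columns and gave coordinates on CR v1 JGI (file headers). Bowtie, TopHat and Cufflinks are named in the submitters' processing notes, whose versions and settings no source used here gives. Columns were matched to libraries by name. Identifiers are not paired with names in the table and no reference table was used here, so marker, gene family and promoter lists were not applied and no sequence is printed.

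Steadiness was the SD of log2(FPKM + 1) over 18 libraries among rows of at least 10 FPKM in each. Species and tissue differences came from limma (3.58.1, under R 4.3.3; moderated by empirical Bayes, mean trend allowed), fitted on all rows with at least 1 FPKM in at least 4 libraries of the fit, and Benjamini-Hochberg adjustment at 0.05. Species were fitted on 8 buds and tissues on 4 buds and 10 leaves of C. grandiflora. Because 1 is added before the log, differences of genes at low FPKM come out too small. The p-values set each difference between groups against the spread between these libraries, each from a separate plant. Summaries were computed with Python, pandas and numpy, and the fits were checked on simulated data. There every library of a gene had the spread of its C. grandiflora buds or a set minimum. The wider spread of leaf was therefore not covered by that check. Named genes were the 8 of smallest SD, the 3 of highest and of lowest mean, the 2 of largest difference in each direction per comparison, and the 3 on each side of the limit, besides neighbouring members and genes said to be chosen after their values were seen. The set of 200 and all lists and tests were chosen with earlier results of these data known. Alternatives covered the pseudocount, the minimum, the filter, column scaling, the trend, the groups fitted and each library left out of the choice of genes. In the fits, buds alone were left out in turn, and all 10 leaves stayed. Added after seeing the data were centring within each tissue and leaving out both columns with 0.5 in place of 0.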

Additional observations from a re-analysis of the deposited data

Results flagged for a closer look

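In 7 of 105 sets of 4 to 10 libraries examined, 1 library stood apart from the rest of its group by Dixon's criterion, which chance alone meets in about 1 of 20. Carubv10008946m, the gene of smallest SD, had 37.53 FPKM in C. rubella bud 1, with the nearest C. rubella bud at 38.59. Carubv10006371m had 31.37 FPKM in C. rubella bud 4, with the nearest at 28.76. Carubv10023052m had 18.56 FPKM in C. rubella bud 1, with the nearest at 15.65, and this highest C. rubella bud still lay below every C. grandiflora bud. Carubv10008296m had 28.33 FPKM in C. grandiflora bud 3, with the nearest at 31.12. Carubv10019120m, just outside the set, had 18.83 FPKM in C. rubella bud 2, with the nearest at 16.21. The median FPKM of the 200 was 29.345 in C. grandiflora bud 1, with the nearest C. grandiflora bud at 27.16. Their share of the FPKM sum was 1.34% in C. grandiflora bud 3, with the nearest at 1.27%.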

How the results depend on the processing

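Across the alternatives, 83 values of the comparisons changed by less than the spread between replicates (counts by less than 1.5 times) and 41 by more. For named genes, 169 changed by less and 116 by more, and 3 that changed sign were counted apart. The 3 were tissue differences: Carubv10007378m was 0.0799 after quantile normalization and 0.86 with equal column sums, and Carubv10009603m was 0.86 with equal sums. Other differences also changed sign and are counted among the 169 or the 116. For example, the tissue difference of Carubv10018138m went from -0.22 to 0.57 after quantile normalization and 1.07 with equal sums. The pool of 5356 genes became 8292 with a minimum of 5 FPKM and 2659 with 20. Of the 200, 113 stayed among the steadiest with a minimum of 20 FPKM and 59 with none; equal sums, medians and upper quartiles and quantile normalization kept 0, 73, 61 and 63. Genes of the 200 called between species numbered 11 with equal sums, 13 with equal medians, 14 after quantile normalization, 0 in a fit of all 18 libraries, 2 without both columns holding 0.5 (chosen after seeing the data), and 2 to 11 with each bud left out. Those settings called 23.1%, 24.2%, 24.5%, 8.47%, 12.1% and 16.2% to 23.5% of all genes tested. Those called between tissues numbered 200, 46, 96 and 122 under the 4 scalings in that order, 22 in the fit of all libraries, and 2 to 4 with each C. grandiflora bud left out. Those settings called 80.2%, 70.7%, 74.3%, 74.4%, 72.8% and 60.6% to 60.9% of all genes tested. Leaving out the columns holding 0.5 (chosen after seeing the data) gave 4, and it is the fit without C. grandiflora bud 1, since the other such column is not in it. Of the 200 called with equal sums, all were higher in bud; of the 46 with equal medians, all were lower. The median species difference was 0.0537 with equal sums. The median tissue difference was 1.23, -0.18, 0.28 and 0.35 under the 4 scalings. The median SD in unused libraries was 0.0841 with a pseudocount of 5, 0.116 after quantile normalization and 0.0999 with a minimum of 5 FPKM for the C. grandiflora choice. It was 0.261 and 0.258 for the bud choice with a pseudocount of 5 and after quantile normalization, and 0.128, 0.168 and 0.153 for the leaf choice under the same 3 changes. Centring within each tissue, chosen after seeing the data, kept 154 of the 200. Apart from the scalings, which by construction shift bud against leaf, the cause was not tested. No paired fit was made: the labels give no replicate numbers, and what the shared starts of 3 bud and leaf titles mark is not stated in the sources used here. Depth is unknown for these values.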

Other observations

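No gene was among the steadiest 200 under FPKM as deposited and all 4 other scalings at once, since the choice under equal sums shared 0 genes with the first. Leaving equal sums out, 8 genes were in all 4 remaining choices: Carubv10007204m, Carubv10022741m, Carubv10009866m, Carubv10013187m, Carubv10008114m, Carubv10001751m, Carubv10005458m and Carubv10000540m. They were picked after their values were seen. Their ranks by SD in FPKM as deposited ran from 13 to 144. Among them, Carubv10022741m and Carubv10009866m have exactly the coordinates of other rows, so the FPKM of these genes is uncertain.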
